A study of Mus musculus with 4 samples.

Results

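The 46 mouse genes described here encode chromatin regulators and proteins that work beside them, and each is the counterpart of a human gene in which mutations are linked to autism or intellectual disability. They were listed by name for that reason. No measured value enters the rule, but the list was made with earlier results of these data known. All 46 were found in each of the 3 deposited tables, among 22084 genes in all. RNA was counted per gene in 4 libraries from mouse embryos of the mixed strain B6D2F2 at stage E13.5. The titles and tissue fields give telencephalic tissue, while the extraction protocol gives cerebral cortex.

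The libraries KO26F and KO23M have the genotype TCF20-/-, and WT25F has TCF20+/+. WT22M is titled as wild type but has the genotype TCF20+/-, so it is either wild type or heterozygous. The kind of Tcf20 allele, the deleted part and the litters are not named in the sources used here, and p-values measure only the spread between these libraries. The series asks how Tcf20, a nuclear co-regulator related to Rai1, acts in the formation of neurons. KO26F and KO23M (KO) were compared with both other libraries, called carriers because each has a wild-type allele whichever label of WT22M holds. They were also compared with WT25F alone, WT22M was compared with WT25F, and the 2 libraries with the title letter F were compared with the 2 with the letter M.

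The totals lay between 17791641 and 18509743 counts, so a count of 0 allows up to 0.162 to 0.169 CPM (the count per library total, scaled up). Tcf20 stood at 118 CPM in WT25F and 111 in WT22M, against 98.6 and 104 in KO26F and KO23M. They are no check of the labels, because the deleted part is not given. The title letters went with Xist, the RNA that coats the inactive X: KO26F and WT25F had 519 and 450 CPM, and KO23M and WT22M had 0.0540 and 0.169. None of the markers in the 10 lists of cell types stood at 0 in any library, and the neuron list summed to between 6157 and 6339 CPM. Choroid plexus markers summed to 202 CPM in WT22M against 783 to 1004 in the other 3 libraries. Diencephalon markers summed to 97.3 CPM in WT25F against 38.8 to 43.3 in the others. In bulk tissue, fewer cells of a type and less RNA per cell cannot be told apart.

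Chromatin regulators set which genes a cell can read. CHD proteins and the BAF complex use ATP to move or evict nucleosomes, histone methyltransferases and acetyltransferases write marks that other proteins read, and demethylases and deacetylases remove them. Many of these genes are sensitive to dose, so that losing a single copy is enough to disturb brain development. In the embryonic forebrain they act in dividing radial glia and in the neurons that these cells form. Tcf20 is itself a chromatin protein whose human counterpart is mutated in intellectual disability.

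The CHD remodellers spanned most of the range of the 46 genes. To compare genes, counts were scaled to CPM and divided by the length of the merged exons in kb. Chd3, an ATPase of the NuRD complex, had the highest level, 168 ± 7.04 CPM per kb (SD, n = 4). KO26F had 1399 CPM of it, KO23M 1405, WT25F 1370 and WT22M 1506, so that WT22M was the high library. Chd4, the other main NuRD ATPase, reached 63.9 ± 2.03 CPM per kb. Chd8, which is among the genes most often mutated in autism, stood at 8.43 ± 0.29 CPM per kb. Chd2 stood at 4.87 ± 0.69, and Chd7, whose human counterpart is mutated in CHARGE syndrome, at 3.84 ± 0.51.

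Among the BAF subunits, Smarcc2, a scaffold subunit, stood at 165 ± 4.59 CPM per kb (SD, n = 4), within the SD of Chd3. Smarca4, one of the alternative ATPases of the complex, reached 101 ± 4.99. The DNA-binding subunit Arid1a stood at 28.2 ± 2.27 CPM per kb. Smarca2, the other ATPase, Arid2 and Arid1b lay between 6.16 and 8.49. Chd3, Smarcc2, Smarca4 and Chd4 together made up 36.5% to 39.6% of all counts of the 46 genes, which summed to between 8914 and 9676 CPM.

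The histone methyltransferases were led by Ehmt2, which methylates histone H3 in silent chromatin, at 84.3 ± 5.56 CPM per kb. Its partner Ehmt1 stood at 19.9 ± 1.47. The other members of this group, including the COMPASS enzymes Kmt2a, Kmt2c and Kmt2d, the enzymes Nsd1, Setd2 and Ash1l, and Setd5 and the SET-binding protein Setbp1, lay between 3.15 (Kmt2c) and 13.1 (Kmt2d). Of the demethylases, Kdm6b, which removes the Polycomb mark, reached 46.6 ± 1.47 CPM per kb, and Kdm5b, which acts on the mark of active promoters, 11.3 ± 0.43.

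DNA-binding and adaptor proteins lay in a narrower band. Ctcf, which anchors chromatin loops, stood at 23.7 ± 1.90 CPM per kb, and Bcl11a, a zinc finger factor of cortical neurons, at 23.1 ± 1.48. Phf21a stood at 18, and Pogz, Ankrd11 and Foxp1 lay between 5.50 and 14.4. Adnp stood apart at 0.161 ± 0.073 CPM per kb, with only 24 counts for KO26F, 7 for KO23M, 14 for WT25F and 17 for WT22M. In the annotation used here, 82.1% of its exon bases, 4393 of 5350, are shared on the same strand with the gene model Gm20716, and whether the counting left such reads out was not tested. Its level is therefore uncertain, and values over the other 45 genes are given where it matters.

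The Polycomb-linked genes Auts2, Asxl1 and Asxl3 stood at 10.8, 10.2 and 1.73 CPM per kb. The acetyltransferases Kat6a, Crebbp, Kat6b and Ep300 lay between 5.05 and 9.54, the co-regulators Tbl1xr1 and Med13l at 5.26 and 4.62, and the deacetylase Hdac4 at 2.47. In the last group, the RNA helicase Ddx3x led with 40.3 ± 6.12 CPM per kb. The ubiquitin ligase scaffold Cul3 stood at 20.2, Wac at 17.5, the kinase Dyrk1a at 9.26, the ubiquitin ligase Trip12 at 8.07 and the acetyltransferase subunit Naa15 at 5.17.

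**Figure D1:**
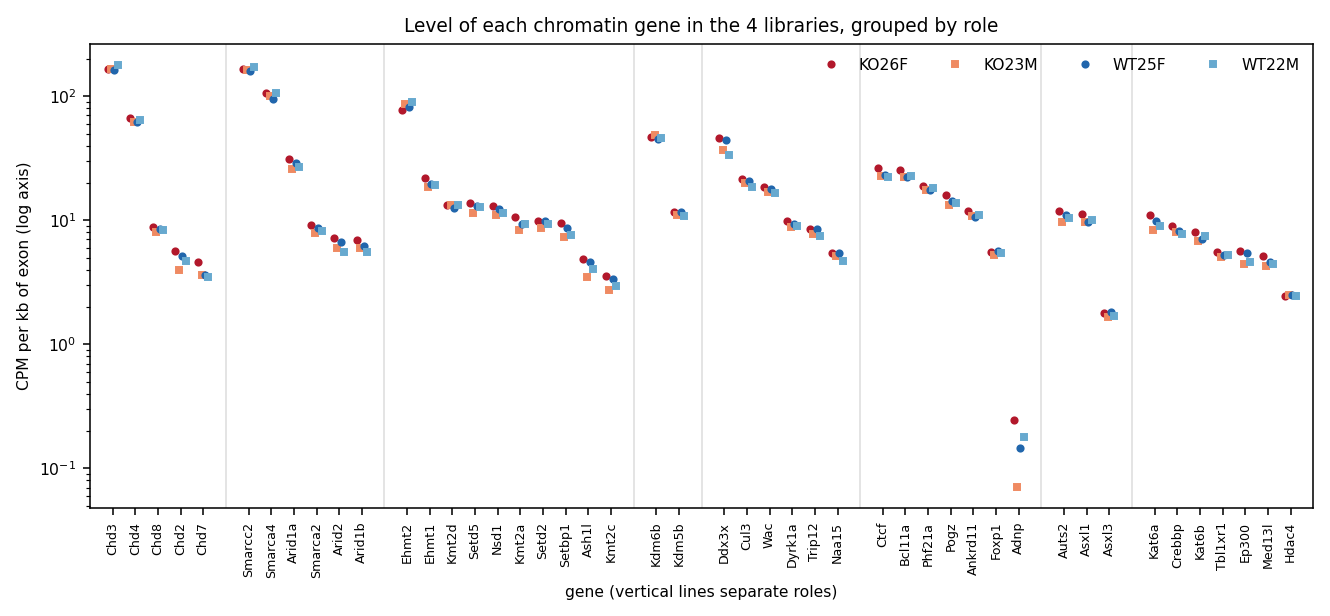
Level of each of the 46 genes in each library, as CPM per kb of exon on a log axis, with 1 point per library and vertical lines between roles. Chd3 and Smarcc2 lie at the top, Adnp lies far below the rest, and the 4 points of most other genes nearly coincide.

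Pairs of related genes differed in level, and each pair kept its order in all 4 libraries. The ratio of levels per kb was 12 for Smarca4 to Smarca2 (10.9 to 12.8 over the 4 libraries) and 4.59 for Arid1a to Arid1b (4.31 to 4.88). It was 4.27 for Ehmt2 to Ehmt1, 4.21 for Kmt2d to Kmt2c, 5.86 for Asxl1 to Asxl3 and 2.21 for Chd8 to Chd7. Chd4 stood at 0.380 times Chd3 and Ep300 at 0.607 times Crebbp. These ratios depend on which length is used: with the longest transcript in place of all exons, Smarca4 to Smarca2 became 5.06 and Setd5 to Setd2 went from 1.36 to 2.87. Kat6a to Kat6b turned from 1.30 to 0.601.

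Across the 4 libraries the 45 genes without Adnp varied little, with a median coefficient of variation of 6.96%. It was under 5% in 15 genes and over 10% in 10. Hdac4 had the lowest value, 1.15%, with all 4 libraries between 38.6 and 39.5 CPM. Ddx3x had the highest, 15.2%, and its values are given below with the comparison of the title letters.

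The 46 genes also share features that the choice by name did not use. Their median transcript was 7900 bases long, against 3475 for the 14097 protein-coding genes tested, and their median gene span was 100 kb against 25.0 kb. Their median level was 118 CPM against 26.7, while the median transcript GC content was similar, 49.4% against 50.0%. They lie on 19 chromosomes. Only Ddx3x is on the X, and Ep300, Arid2 and Kmt2d are on chromosome 15 with Tcf20, at 1157, 13375 and 15920 kb from it. These are descriptions without a test.

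RefSeq promoters of GRCm38.p6, which run from 250 bases before to 50 bases after a start, were found for 34 of the 46 genes, 43 promoters in all. The median number of CpG dinucleotides per promoter was 30, against 20 in 13306 promoters of protein-coding genes with a mean of at least 1 CPM, and 86.0% against 68.1% had an observed to expected CpG ratio over 0.6. Both strands were searched for 4 motifs. CCGGAAG, the core of ETS sites, was in 3 of the members' 43 promoters (6.98% against 16.1%). ATGGCGG, found in YY1 sites, was in 6 (14.0% against 7.46%). TATAAA was in 1 (2.33% against 6.87%) and CCAAT in 10 (23.3% against 37.3%). These counts are small, and some of the 43 promoters overlap one another. The stretches before the start of Ddx3x and Ehmt2 are shown because these genes had the smallest p among those higher and those lower in the F libraries. CpG dinucleotides are in capitals. The Ddx3x stretch is chrX:13280772-13280969 on the plus strand, 198 bases with 14 CpG, and the Ehmt2 stretch is chr17:34898224-34898468 on the plus strand, 245 bases with 16 CpG. Each is the part of a listed promoter that lies before the gene's start in the files, for Ehmt2 of the first of 2 promoters listed.
Ddx3x: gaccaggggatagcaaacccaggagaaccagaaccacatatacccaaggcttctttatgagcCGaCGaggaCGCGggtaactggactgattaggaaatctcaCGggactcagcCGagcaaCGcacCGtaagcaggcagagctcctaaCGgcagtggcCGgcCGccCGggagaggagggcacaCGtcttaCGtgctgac
Ehmt2: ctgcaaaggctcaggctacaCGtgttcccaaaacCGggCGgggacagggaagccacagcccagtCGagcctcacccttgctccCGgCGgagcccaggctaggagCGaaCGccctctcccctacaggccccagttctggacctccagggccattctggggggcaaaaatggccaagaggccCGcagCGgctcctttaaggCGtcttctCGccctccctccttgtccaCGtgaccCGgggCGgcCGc

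None of the 46 genes passed the threshold between KO and carriers. The test was edgeR's quasi-likelihood test with Benjamini-Hochberg adjustment over 16252 genes, of which 0.0615% were called at an adjusted p under 0.05. None of the 46 had an unadjusted p under 0.05 either, DESeq2 and limma voom called 0 as well, and 33 of 46 lay on the higher side in KO with a median log2 fold change of 0.028, against 0.002 over all genes tested. Without Adnp, the fitted log2 fold changes ran from -0.07 to 0.20. The 95% intervals of those 45 genes ended no lower than -0.33 (Ash1l) and no higher than 0.44 (Chd7), bounds of 0.793-fold and 1.36-fold. For Adnp the interval was much wider, from -1.21 to 1.13.

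Chd7 had the smallest p of the 46. KO26F had 63.4 CPM, KO23M 50.1, WT25F 50.0 and WT22M 48.4. KO26F was thus the high library, and KO23M lay only just above the carriers. The log2 fold change was 0.20 (SE 0.12, 95% interval -0.04 to 0.44), with an adjusted p of 0.9997 in edgeR's test. The next genes on the higher side were Arid1b at 0.13 (SE 0.11), Ctcf at 0.12 (SE 0.10), Crebbp at 0.09 (SE 0.10) and Arid2 at 0.10 (SE 0.12). On the lower side were Setd2 and Ehmt2 at -0.07 (SE 0.10 and 0.11), Ash1l at -0.06 (SE 0.13), and Chd3 and Setd5 at -0.04 (SE 0.10 and 0.11). In CPM, both KO libraries lay above both carriers in Chd7 and Kdm6b, 2 of 46 genes, and below them in 0 of 46. Over 15130 genes with at least 10 counts in every library, which 45 of the 46 have, these shares were 13.6% above and 13.1% below.

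By role, 5 of 6 BAF subunits, 5 of 7 DNA-binding and adaptor genes, 6 of 7 acetylation and co-regulator genes and 6 of 6 genes of the last group lay on the higher side. Of the CHD remodellers 2 of 5 did, and of the methyltransferases with Setbp1 5 of 10. No role had a member called. The sides depended on single libraries: 12 of 46 members were on the higher side without KO26F and 41 without KO23M. No cell type marker passed the edgeR test between the arms, but the sums of some lists, in CPM on plain library totals, did not overlap. The sums of the radial glia, choroid plexus, diencephalon and erythroid lists did overlap. Of single genes with at least 10 counts in every library, 13.6% had both KO libraries above both carriers and 13.1% below. Intermediate progenitor markers (6 of 6 on the higher side in KO) summed to 925 and 927 CPM in KO26F and KO23M against 791 and 860 in WT25F and WT22M, and ventral GABAergic markers (8 of 8) to 1316 and 1354 against 1183 and 1140. Meningeal and mesenchymal markers (0 of 6) summed to 209 and 213 CPM against 266 and 275, and those of endothelium and pericytes (0 of 6) to 255 and 250 against 272 and 275. Microglia and macrophage markers (1 of 6) summed to 63.8 and 68.3 CPM against 71.9 and 86.8, and neuron markers (3 of 8) to 6157 and 6196 against 6339 and 6306. The gap in the neuron sums depends on the scaling. The TMM factor used in the fits was 0.986 for KO23M and 1.01 for WT25F, and with it these sums would overlap. Tubb3, the largest part of them, overlapped in CPM, at 2879 and 3183 against 3061 and 3183. The part of these cell types in the values of the members was not tested.

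**Figure D2:**
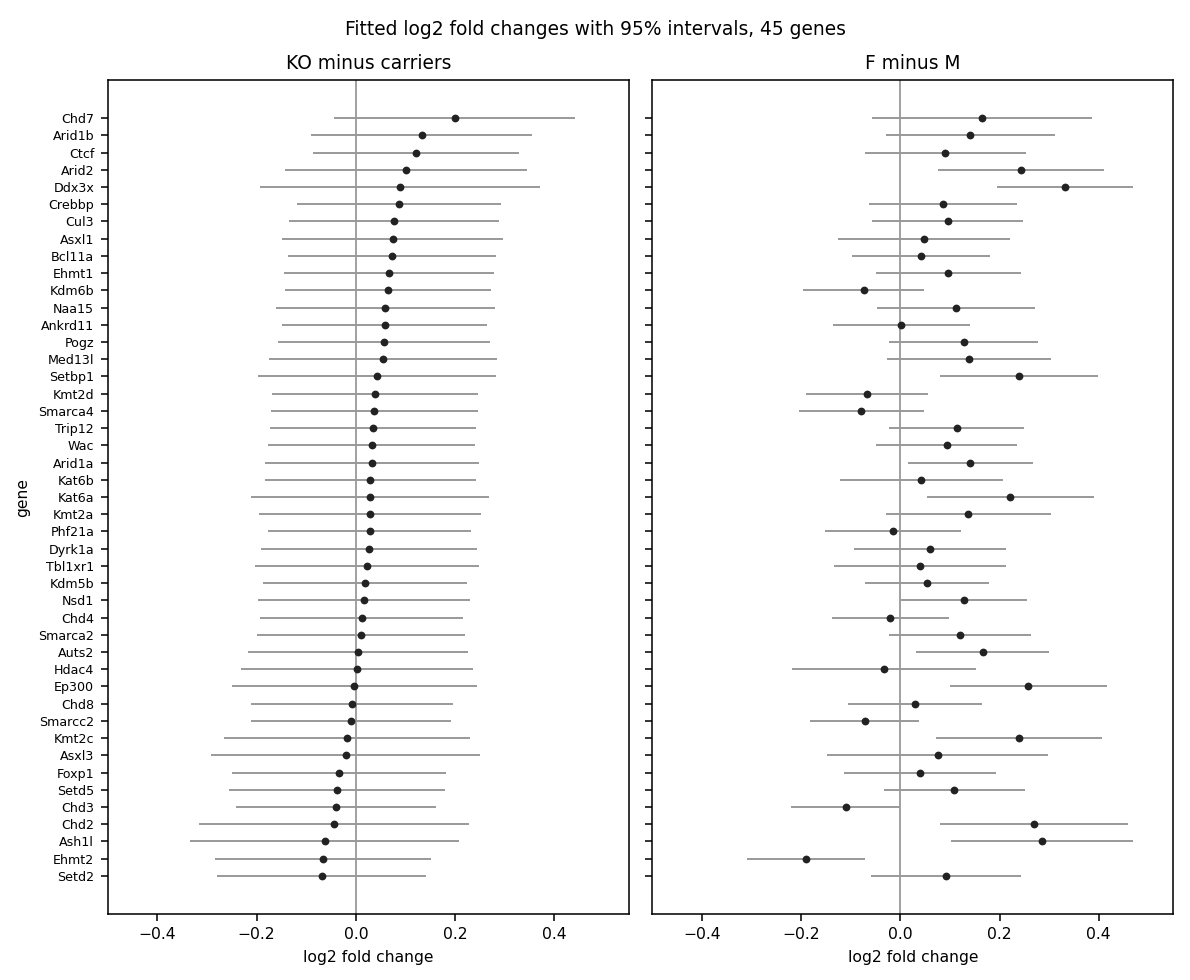
Fitted log2 fold changes (points) with 95% intervals (lines) for 45 genes without Adnp, KO minus carriers at left and F minus M at right, in the same order of genes. At left every interval crosses 0. At right the points spread from -0.19 (Ehmt2) to 0.33 (Ddx3x).

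The KO libraries did not lie on the same side of the carriers when each was set against the carrier of its own title letter. Ratios here use library totals scaled by TMM factors, and their 95% intervals cover counting error only. KO26F was higher than WT25F in 40 of 46 genes, with a median log2 ratio of 0.082, and the interval lay above 0 in 24 genes and below 0 in 1. Among 13507 protein-coding genes with at least 10 counts in every library, 49.9% were higher in KO26F, and the interval lay above 0 in 13.9% and below 0 in 15.0%. KO23M was higher than WT22M in only 13 of 46, with a median of -0.046, and the interval lay above 0 in 5 and below 0 in 13. The shares over the same protein-coding genes were 51.5% higher, 14.3% above 0 and 13.1% below 0. In both pairs 11 of 46 genes were higher and 4 lower, where 26.3% and 24.9% of protein-coding genes were. In 9 members the interval lay above 0 in the F pair and below 0 in the M pair, as in 2.30% of protein-coding genes. The intervals narrow with the count, and the members' median level was above that of protein-coding genes, as given above. Leaving out KO26F left 12 of 46 genes on the higher side (median -0.032), and leaving out KO23M left 41 (median 0.105).

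Arid1b was the member with both intervals above 0, at 0.14 (0.03 to 0.24) in the F pair and 0.13 (0.02 to 0.24) in the M pair. Ehmt2 was the member with both below 0, at -0.08 (-0.13 to -0.04) and -0.05 (-0.09 to -0.01). Both were picked out after their values were seen, and neither passed the edgeR test. Kmt2a, the founding enzyme of its family, showed the opposite pattern. KO26F had 178 CPM, KO23M 140 and each carrier 155, so that the carriers lay between the KO libraries. Its log2 ratios were 0.19 (0.12 to 0.27) in the F pair and -0.15 (-0.23 to -0.07) in the M pair. With a block for the letter, which takes out the common difference between F and M, 0.757% of genes passed the edgeR test but 0 of the 46. That fit has 1 residual degree of freedom. Chd7 then had an unadjusted p of 0.0292 and an adjusted p of 0.626 in edgeR's test.

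**Figure D3:**
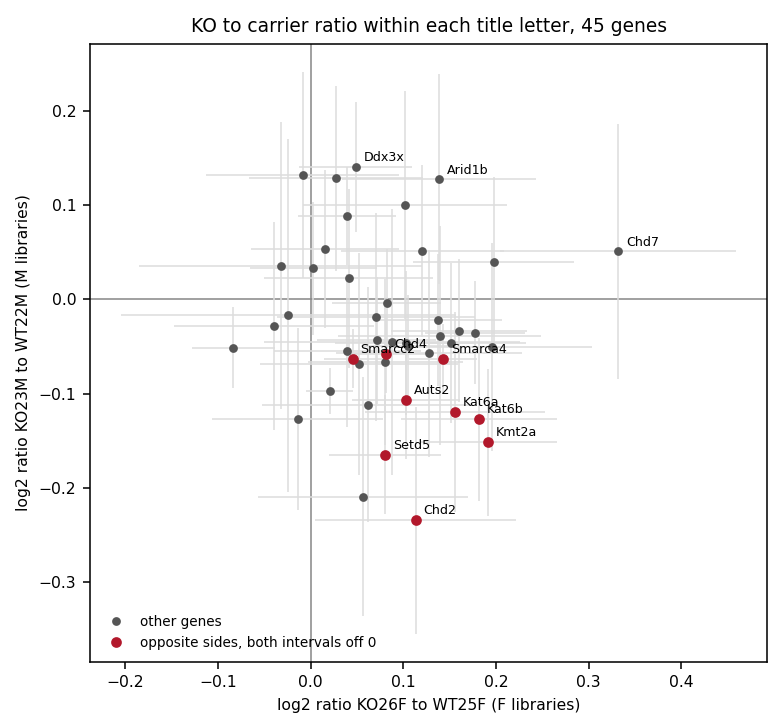
Log2 ratio of KO26F to WT25F (horizontal axis) against that of KO23M to WT22M (vertical axis) for 45 genes without Adnp, with lines for 95% counting intervals. Most points lie to the right of 0 and below 0, and the 9 genes whose intervals leave 0 on opposite sides are in red.

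Against WT25F alone, 0 of the 46 genes passed in the fit with 3 groups, in which 0.334% of 17050 genes did, and none had an unadjusted p under 0.05. That fit takes its spread from KO26F and KO23M and assumes that WT25F and WT22M, each alone in its group, vary as much. With the spread of the fit by arm in its place, 6 genes passed in all for KO against WT25F and 0 for WT22M against WT25F, where 57 and 123 had. DESeq2 and limma voom also called 0. The members closest to the threshold were Chd7 at 0.19 (SE 0.16), Smarca4 at 0.13 (SE 0.15) and Ctcf at 0.12 (SE 0.15) on the higher side. On the lower side they were Ash1l at -0.14 (SE 0.16), Ep300 at -0.10 (SE 0.15) and Chd2 at -0.09 (SE 0.16).

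For WT22M against WT25F, the comparison that bears on losing a single copy if the genotype field is right, 0 of 46 passed and 0.721% of all genes did. Both letter and possible genotype differ in this pair and cannot be told apart. Ddx3x was the member with an unadjusted p under 0.05, at -0.38 (SE 0.17, adjusted p 0.884 in edgeR's test), and DESeq2 and limma voom called 0. Arid2 stood at -0.24 (SE 0.18) and Ep300 at -0.20 (SE 0.18), while Smarca4 and Ehmt2 stood at 0.18 (SE 0.18) and Chd3 at 0.17 (SE 0.18).

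The authors' deposited tables compare each library with WT25F, so that they share this library. In the deposited tables none of the 46 genes carries the authors' mark of significance, which 1.96% of listed genes have for KO26F, 2.90% for KO23M and 3.62% for WT22M. The mark goes with a deposited log2 fold change of 1 or more in size beside an adjusted p under 0.05. At the deposited adjusted p under 0.05 alone, 23 of 46 genes passed for KO26F (22 higher, 1 lower) where 13.7% of listed genes did. For KO23M 22 of 46 passed (5 higher, 17 lower) where 22.1% did, and for WT22M 21 of 46 (6 higher, 15 lower) where 22.4% did. In the authors' deposited table for KO26F, Smarca4 has a log2 fold change of 0.15. The authors' deposited table for KO23M gives Ash1l -0.40, and that for WT22M gives Ddx3x -0.41. Each of these tables sets 1 library against 1, and the test behind the deposited p-values is not named in the sources used here.

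The libraries were then compared by title letter. In CPM, both F libraries lay above both M libraries in 30 of 46 genes and below them in 2 (Chd3 and Ehmt2), where 30.1% of the same 15130 genes lay above and 19.0% below. In the fit, 37 of 46 genes were on the higher side in F, with a median log2 fold change of 0.094 against 0.008 over all genes tested. No member passed the edgeR test, which 0.252% of genes did. An unadjusted p under 0.05 was reached by 13 of 46 members (28.3%) and by 14.6% of all genes tested. DESeq2 called 2 members, Ddx3x and Ehmt2, and 1.24% of genes tested, and limma voom called 0 members and 0.0984% of genes.

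Ddx3x was nearest to the threshold. The F libraries KO26F and WT25F had 245 and 235 CPM, and the M libraries KO23M and WT22M had 194 and 177, so that the letters did not overlap. The log2 fold change, F minus M, was 0.33 (SE 0.06, 95% interval 0.19 to 0.47, adjusted p 0.0512 in edgeR's test). Ep300 had 81.0 and 77.7 CPM in the F libraries against 63.0 and 66.3 in KO23M and WT22M, a log2 fold change of 0.26 (SE 0.07, adjusted p 0.160 in edgeR's test). Ash1l had 72.0 and 68.8 CPM against 52.1 and 60.4, a log2 fold change of 0.29 (SE 0.08, adjusted p 0.165 in edgeR's test). The largest difference the other way was that of Ehmt2, with 427 and 450 CPM in the F libraries against 478 and 496, at -0.19 (SE 0.06, adjusted p 0.161 in edgeR's test). Chd3 stood at -0.11 (SE 0.05) and Smarcc2 at -0.07 (SE 0.05).

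With the arm, KO or carrier, as a covariate, 5 members passed where 4.10% of all genes did, in a fit with 1 residual degree of freedom. Ddx3x, Ash1l, Chd2 and Ep300 were higher in F, with adjusted p-values of 2.82e-05, 0.0255, 0.0333 and 0.0444 in edgeR's test. Ehmt2 was lower, with an adjusted p of 0.0347. Chd2 had 80.3 and 73.7 CPM in the F libraries against 57.2 and 67.4 in KO23M and WT22M.

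The difference between the letters went with the base composition of the transcripts, among all genes as among these. Over the 45 genes without Adnp, which share the same 4 libraries, F minus M had a Pearson r of -0.52 and a Spearman rho of -0.39 with transcript GC content. Over 14097 protein-coding genes the rho was -0.40. With log2 transcript length the rho was 0.39 over the 45 genes and 0.35 over protein-coding genes. Genes are not independent replicates, so these are descriptions without a p. In the tertile of protein-coding genes with the lowest GC content, 14 of 14 members were higher in F, in the middle tertile 20 of 23 and in the highest tertile 3 of 9. Of the protein-coding genes in these tertiles, 3411 of 4699, 2680 of 4699 and 1241 of 4699 were higher in F. The medians of protein-coding genes in these tertiles were 0.095, 0.031 and -0.101, and those of the members 0.094, 0.120 and -0.072. With offsets for GC content and length, an alternative chosen after seeing the data, 19 of 46 members were on the higher side, the median was -0.018 and 0 passed. With these offsets and the arm as covariate 0 passed as well. Choroid plexus and diencephalon markers also differed between the libraries as given above, and their part in the differences between the letters was not tested.

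**Figure D4:**
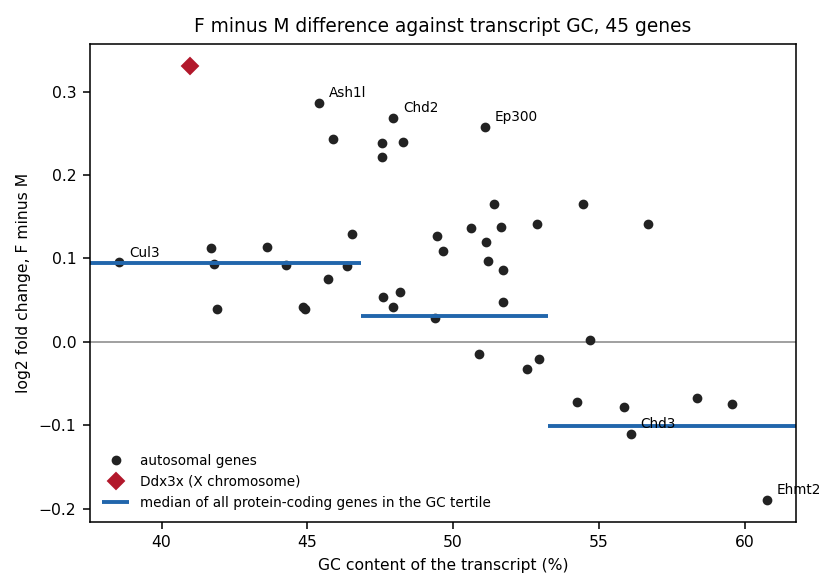
Log2 fold change, F minus M, of 45 genes without Adnp against the GC content of their transcripts in percent, with lines for the median of all protein-coding genes in each tertile of GC content. Ddx3x is the highest point, at 0.33, and Ehmt2 the lowest, at -0.19. The lines fall from left to right, from 0.095 through 0.031 to -0.101. The members' own medians in these tertiles were 0.094, 0.120 and -0.072, lower only in the highest tertile.

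Ddx3x lies on the X chromosome and has a copy on the Y, Ddx3y, as do the demethylase genes Kdm5c and Kdm6a, with Kdm5d and Uty, and the translation factor gene Eif2s3x, with Eif2s3y. Some X-linked genes with Y-linked copies are known to be read from both X chromosomes in females. The Y-linked copies had 0 counts in both F libraries. Ddx3y stood at 9.13 CPM in KO23M and 8.09 in WT22M, 4.69% and 4.58% of Ddx3x there. The F libraries had on average 1.29 times the Ddx3x CPM of the M libraries. For the other X-linked genes this ratio was 1.33 (Kdm5c), 1.62 (Kdm6a) and 1.84 (Eif2s3x). Adding the Y-linked copy gave 204 CPM for Ddx3x with Ddx3y in KO23M and 185 in WT22M, still below both F libraries. For Kdm5c with Kdm5d the sums were 144 and 146 CPM, against 154 and 142 of Kdm5c in KO26F and WT25F.

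Of 16 genes found from the list of X-linked chromatin and partner genes with Y-linked copies, 7 passed the edgeR test between the letters, where 0.252% of all genes did. Xist, Eif2s3x and Kdm5c were higher in F, at 0.84 (adjusted p 1.73e-04 in edgeR's test) for Eif2s3x and 0.38 (adjusted p 0.0329) for Kdm5c, and Eif2s3y, Kdm5d, Ddx3y and Uty were lower. The letters were set against Xist above, and the Y-linked copies had no counts in F. The calls of Xist and the Y-linked copies therefore say nothing more about the list. Kdm6a stood at 0.66 (SE 0.13), with an adjusted p of 0.0629 in edgeR's test, and passed with the arm as covariate (adjusted p 3.40e-04). In that fit 9 of the 16 passed, Usp9x (0.36, adjusted p 0.0264) as well, where 4.10% of all genes did. In KO against carriers 0 of the 16 passed, and the smallest p were those of Phf6 at 0.15 (SE 0.11) and Smc1a at 0.09 (SE 0.10).

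**Figure D5:**
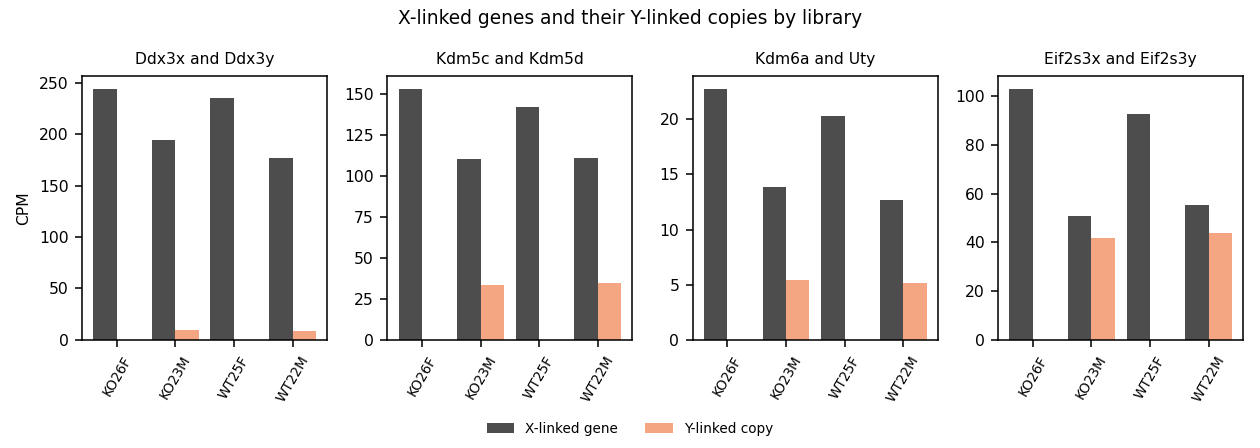
CPM of 4 X-linked genes (dark bars) and their Y-linked copies (light bars) in each library. Ddx3x stands at 245 and 235 CPM in the F libraries against 194 and 177 in the M libraries, and its Y-linked copy is a small part of the M level, unlike that of Eif2s3x.

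The proteins that work in the same complexes were followed with fixed lists. In KO against carriers, 0 genes passed in any of the 7 lists. The number on the higher side was 14 of 21 BAF partners, 8 of 12 NuRD partners, 11 of 13 COMPASS partners, 13 of 20 Polycomb genes, 7 of 10 co-repressor and deacetylase genes, 9 of 9 cohesin genes and 12 of 16 X-linked and Y-linked genes. The list medians lay between 0.010 (NuRD) and 0.085 (cohesin), against 0.002 over all genes tested. The smallest p belonged to Cbx7, a Polycomb reader subunit, with 8.11 and 7.56 CPM in the KO libraries against 14.0 and 11.2 in WT25F and WT22M. The KO libraries were the low ones and did not overlap with the carriers. Its log2 fold change was -0.69 (SE 0.18), with an adjusted p of 0.693 in edgeR's test. With the title letter as a block it passed, at an adjusted p of 0.0162 in edgeR's test. That fit has 1 residual degree of freedom, and 0.757% of all genes passed in it. Ring1, a ubiquitin ligase subunit of Polycomb, stood at 60.2 and 60.9 CPM in the KO libraries against 50.5 and 50.6, at 0.26 (SE 0.11, adjusted p 0.9997).

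The genes with the smallest p of the other lists in KO against carriers were Ss18 at 0.17 (SE 0.11) and Smarcd1 at 0.14 (SE 0.10) of BAF, and Chd5 at -0.12 (SE 0.10) and Mbd2 at 0.10 (SE 0.12) of NuRD. For COMPASS they were Setd1a at 0.10 (SE 0.12) and Hcfc1 at 0.07 (SE 0.10). Rest, a repressor of neuronal genes, stood at 0.21 (SE 0.16) in the co-repressor list. Both Wapl and Nipbl of the cohesin list, which unload and load the ring on DNA, stood at 0.14 (SE 0.12 and 0.11). Between the letters, 0 genes passed in the BAF, NuRD, COMPASS, Polycomb, co-repressor and cohesin lists. The share higher in F there was 11 of 21, 3 of 12, 8 of 13, 10 of 20, 5 of 10 and 9 of 9, against 37 of the 46 genes themselves. With the arm as covariate, Smarcb1 of BAF, Mta1 and Mbd3 of NuRD, Men1 of COMPASS and Hdac5 of the co-repressor list were lower in F, with adjusted p-values of 0.0327, 0.0411, 0.0381, 0.0416 and 0.0268 in edgeR's test. Kdm6a of COMPASS and Ncor1 of the co-repressor list were higher, the latter at 0.26 (adjusted p 0.0129). In the Polycomb and cohesin lists 0 genes passed in that fit, in which 4.10% of all genes tested did. That fit has few residual degrees of freedom, as given above. It called 666 genes in all, against 68 with GC and length offsets added and 42 in DESeq2 with the same covariate.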

How the data were processed

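The 4 libraries were prepared with a TruSeq kit from total RNA, as the labels say. Per the submitters' processing notes, Bowtie2 2.2.3, TopHat2 2.0.12 and HTSeq 0.6.0 were used with the build mm9, and the settings for strand and multi-mapping reads are not named in the sources used here. The authors deposited 3 tables with whole-number counts per gene and library, not normalized. Beside them the authors deposited a CPM value, the log2 ratio of these values against WT25F, and a p-value with its adjusted form. The tables were joined by gene identifier (22084 genes, 19626 in all 3), with 0 for a gene absent from a table. Positions are those of the files. For 20221 genes (91.6%) and 43 of the 46 members they equal GENCODE vM21 on GRCm38, not mm9. Exon lengths and transcript GC come from that annotation.

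Counts were tested with edgeR 4.0.16 (robust quasi-likelihood fit, TMM, filterByExpr, threshold 0.05) in R 4.3.3, with Python 3.11.15. KO against carriers and F against M used all 4 libraries, and a fit with 3 groups gave the comparisons with WT25F. The 45 members other than Adnp had between 464 and 26802 counts in every library. Their SE in KO against carriers ran only from 0.097 to 0.132. Alternatives were RLE factors, plain totals, other filters, DESeq2 1.42.0, limma 3.58.1 (voom), the letter as block, the arm as covariate, the spread of the fit by arm in place of that of the fit with 3 groups, and each library left out. Offsets for GC and length were added after seeing the data. Scripts were tested on simulated data. The 46 genes and all lists were chosen with earlier results of these data known. All members may be named. Beside them the text names those with the smallest p on each side of a comparison (5 for KO against carriers, 3 otherwise), related pairs, the 2 genes with the smallest p and any past the threshold in each partner list, and sex-linked genes. A gene of the co-repressor list that the rule takes is not reported here.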

Additional observations from a re-analysis of the deposited data

Results flagged for a closer look

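For 9 genes the ratio of the KO library to the carrier of the same title letter pointed up in the F pair and down in the M pair, with both 95% counting intervals off 0, as in 2.30% of 13507 protein-coding genes. The difference between the letters was not tested, since each pair holds 1 KO library and 1 carrier. The F log2 ratio minus the M log2 ratio was 0.35 for Chd2, 0.34 for Kmt2a, 0.31 for Kat6b, 0.28 for Kat6a and 0.25 for Setd5. It was 0.21 for Auts2, 0.21 for Smarca4, 0.14 for Chd4 and 0.11 for Smarcc2. WT22M, whose genotype label conflicts, is the carrier in the M pair.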

How the results depend on the processing

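For KO against carriers, KO against WT25F and WT22M against WT25F, 0 members were called under every alternative run. For F against M, 0 members were called in the fit as described (41 genes in all), 1 with plain library totals (31 genes) and 2 with DESeq2 (201). With the arm as a covariate 5 were called (666 genes), 1 in DESeq2 with that covariate (42), 2 with it and plain library totals (272), and 0 with it and the GC and length offsets (68). Leaving out each library in turn gave 0 to 1 members and 55 to 165 genes, the 1 member being Ddx3x without KO23M or without WT25F. The cause of these changes was not tested. As 0 members were called in the fits as described, there was no called direction for an alternative to reverse. The sides did change with GC and length offsets. For F against M, 19 of 46 members were then on the higher side, where 37 had been. For WT22M against WT25F it was 30, where 18 had been. The members' median for F against M moved from 0.094 to -0.018 with GC and length offsets, and that for WT22M against WT25F from -0.030 to 0.034. Plain library totals moved the median of all genes, F minus M, to 0.046. With no filter on low counts, 0 genes were called in either comparison with WT25F, against 57 and 123, and with the spread of the fit by arm 6 and 0. Leaving out each library for KO against carriers gave 48 to 100 genes called, against 10. The titles number each library differently, so no replicate number pairs the libraries. The title letter as a block gave 123 genes and 0 members called for KO against carriers. Leaving out a KO library in the fit with 3 groups leaves no residual degrees of freedom and was not run. With 2 libraries an arm, the intervals given above hold the differences that are compatible with these data. They are not limits of detection, which were not tested.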
